A study of Homo sapiens with 4 samples.

Results

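Epithelial cells hold tight lateral contacts with the cadherin CDH1 and the adhesion molecule EPCAM, and brace their cytoplasm with keratin filaments. Mesenchymal cells move more freely, use the cadherin CDH2 and build filaments of vimentin (VIM). The zinc finger factors SNAI2, ZEB1 and ZEB2 bind E-box sequences and repress CDH1 and other epithelial genes, and a switch from the first state to the second is called the epithelial-mesenchymal transition (EMT). In HEK293 cells 10 genes that are widely read as signs of either state were examined, 3 for cell adhesion (CDH1, CDH2 and EPCAM), 4 for intermediate filaments (VIM, KRT8, KRT18 and KRT19) and 3 for transcription factors (SNAI2, ZEB1 and ZEB2). They were chosen by name, with earlier results of these data known. Their probes were found through the RefSeq accession that each probe name carries. All 10 of the 10 genes had probes, 33 of the 71998 probes on the array, and the genes were 10 of the 17214 that could be named.

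HEK293 is an established human line of embryonic kidney origin that was transformed with DNA of an adenovirus. The series holds 1 untreated group of 4 replicates, each from its own culture plate and RNA extraction. The cells were grown in DMEM with 10% FBS and antibiotics, and RNA was extracted at confluence. Total RNA was copied from an oligo(dT) primer, labelled with Cy3 and hybridised in a single color to a NimbleGen array with 60-mer probes. There was no comparison between conditions, so the question asked of each gene was whether its message lay above a level that stands for no expression.

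That level was set as the study set it. The baseline of an array was the mean plus 2 SD of 10 seminal genes that this line was thought not to transcribe, and a gene's distance is its log2 value minus the baseline of the same array. Detected means here that the distance averaged over the 4 arrays was positive. For replicates 1 to 4 the baselines were 9.47, 9.94, 10.69 and 10.32 log2 units. Of the control genes, AFG2A and SPATA13 averaged 9.97 and 9.72 log2 units, and the others between 6.53 and 7.25. AFG2A lay 0.04 log2 units above the baseline on replicate 3. When probe values were sorted, replicate 1 matched replicate 2 within 0.01 at 99.97% of ranks and replicate 3 matched replicate 4 at 99.99%, while arrays from different pairs matched at 1.23% to 1.25%. Distances are therefore also compared between these pairs of arrays, with the means of both pairs printed for EPCAM and ZEB2. Each probe has its own affinity, so a larger distance of 1 gene than of another is not a measure of more message. Of 21 kidney genes 7 were detected, among them the transcription factor SALL1 and the podocyte surface protein PODXL, both above the baseline on all 4 arrays. The share detected was 33.3%, against 52.7% of all named genes. Of 12 markers of blood, endothelial, liver and glial cells, KDR and GFAP had a mean distance above 0, at 0.30 ± 0.85 and 0.16 ± 0.78 log2 units (SD, n = 4), and neither passed the limma test.

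Of the 10 genes 8 were detected, and none of these 8 fell below the baseline on any array. They came from both sets, with KRT8, KRT18, KRT19 and EPCAM on the epithelial side and CDH2, VIM, ZEB1 and ZEB2 on the mesenchymal side. CDH1 lay on the baseline itself, and SNAI2 lay below it on 3 of 4 arrays. Over all named genes the shares were 52.7% for detection and 45% for a positive distance on every array. A one-sided moderated test of the distances against 0 (limma, Benjamini-Hochberg adjustment over all 17214 genes) called 45.9% of all genes and the same 8 of these 10. Every gene had the same standard error in this test. It is therefore a higher cut on the same mean distance and not separate support. The median distance of the 10 genes was 2.32 log2 units, against 0.26 for all named genes. Because the genes were chosen with earlier results known, these contrasts with all genes describe the set and do not test it.

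**Figure D1:**
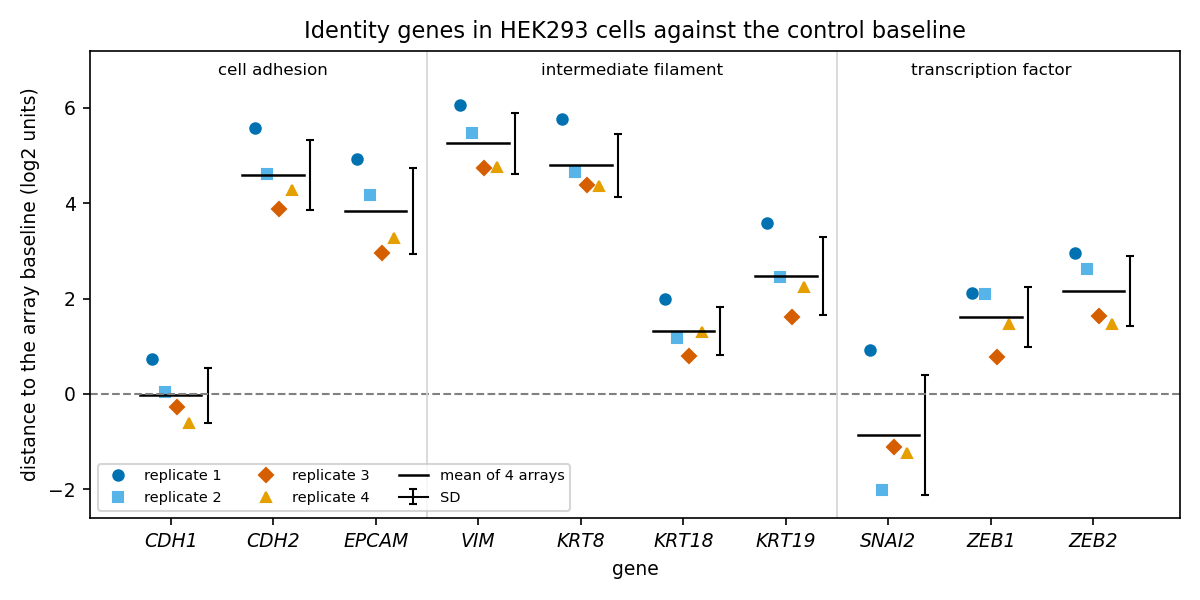
Distance of each gene to the baseline of its array, in log2 units, with 1 point per replicate array, a bar for the mean and an error bar for the SD (n = 4). CDH1 straddles the dashed baseline at a mean of -0.03, SNAI2 is above it on replicate 1 alone, and the other 8 genes lie above it on every array.

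Sequence upstream of the start was available for 5 of the 10 genes, VIM, CDH2, KRT8, ZEB1 and ZEB2, in 12 windows of 250 bases, because ZEB1 has 7 annotated starts and CDH2 has 2. CDH1, EPCAM, KRT18, KRT19 and SNAI2 were not in the table used. The 3 windows below show the mesenchymal genes with the largest distances, VIM and CDH2, and the ZEB1 window with the most copies of the E-box that ZEB and SNAI factors bind. Capitals mark that E-box, which reads CACCTG on 1 strand while the other strand reads CAGGTG, and the GC box to which SP1 binds, which reads GGGCGG on 1 strand while the other strand reads CCGCCC. The windows are RefSeq sequence of GRCh38.p14, written 5′ to 3′ along the gene and ending at the base before its start. VIM is at chr10:17227991-17228240 (plus strand), CDH2 at chr18:28177131-28177380 (minus strand) and ZEB1 at chr10:31318966-31319215 (plus strand).
VIM: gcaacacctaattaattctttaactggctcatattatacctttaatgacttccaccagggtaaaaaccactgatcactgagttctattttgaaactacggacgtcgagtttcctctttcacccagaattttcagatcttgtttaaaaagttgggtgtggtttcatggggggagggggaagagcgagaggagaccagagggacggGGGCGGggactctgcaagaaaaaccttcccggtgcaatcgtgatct
CDH2: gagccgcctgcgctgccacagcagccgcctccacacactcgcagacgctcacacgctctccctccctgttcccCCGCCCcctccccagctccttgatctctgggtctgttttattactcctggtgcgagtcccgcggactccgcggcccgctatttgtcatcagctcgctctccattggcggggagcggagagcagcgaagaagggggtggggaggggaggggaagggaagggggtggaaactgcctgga
ZEB1: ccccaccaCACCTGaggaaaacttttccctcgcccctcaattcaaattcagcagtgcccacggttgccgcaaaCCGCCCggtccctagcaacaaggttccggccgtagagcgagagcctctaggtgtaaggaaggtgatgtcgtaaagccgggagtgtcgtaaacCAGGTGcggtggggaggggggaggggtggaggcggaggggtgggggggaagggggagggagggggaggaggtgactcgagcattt
The E-box was found in 2 of the 12 windows, both of ZEB1, against 17.5% of 35116 windows in the whole table. In the window shown it starts 242 and 85 bases before the annotated start, and in the other ZEB1 window 57 bases before. The GC box was found in 7 of the 12 windows, against 42.6% of all. These were the VIM window, the CDH2 window shown and otherwise windows of ZEB1, so ZEB1 weighs most in this count. The CDH2 window that is not shown held no GC box. No window of VIM, CDH2, KRT8 or ZEB2 held the E-box letters. These are matches of letters in short windows, and binding was not measured.

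Among the adhesion genes, CDH2 and EPCAM were detected together and CDH1 was not separated from the baseline. CDH2, the N-cadherin of neural and mesenchymal cells, had levels of 15.06, 14.55, 14.58 and 14.61 log2 units on replicates 1 to 4. Replicate 1 stood above the other 3 arrays, which ran from 14.55 to 14.61. The mean distance of CDH2 was 4.59 ± 0.73 log2 units (SD, n = 4), and each of its 3 probes lay above the baseline on every array.

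EPCAM, an epithelial adhesion molecule of the cell surface, had levels of 14.41, 14.12, 13.65 and 13.60 log2 units on replicates 1 to 4. Both of replicates 1 and 2 were above both of replicates 3 and 4, as was the case for 18.3% of all named genes. Its mean distance was 3.84 ± 0.90 log2 units (SD, n = 4), or 4.56 on replicates 1 and 2 and 3.12 on replicates 3 and 4. The probes of EPCAM differed in mean level, from 15.04 for the probe numbered 655 to 13.20 for 1287 and 11.68 for 1430, and all 3 lay above the baseline on every array.

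CDH1, the E-cadherin of epithelial junctions, had levels of 10.21, 9.97, 10.42 and 9.70 log2 units on replicates 1 to 4. They were higher on replicates 1 and 3 than on replicates 2 and 4. Subtracting each array's baseline gave distances of 0.74, 0.03, -0.27 and -0.62 log2 units, above 0 on replicates 1 and 2 and below it on replicates 3 and 4. The mean distance was -0.03 ± 0.58 log2 units (SD, n = 4, limma adjusted p = 1), less than the spread between arrays. The probes of CDH1 did not give 1 answer. The probe numbered 3896 averaged 10.83 log2 units and was above the baseline on 4 of 4 arrays, the probe numbered 4235 averaged 10.25 and was above on 3, and the probe numbered 4620 averaged 7.37 and was above on none. The mean distance of CDH1 was 2.05 log2 units when 364 olfactory receptor genes served as controls (limma adjusted p = 3.3e-08) and 2.30 without the 2 control genes with the highest levels, AFG2A and SPATA13 (limma adjusted p = 1.8e-10). Its call thus depends on which genes stand for no expression.

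**Figure D2:**
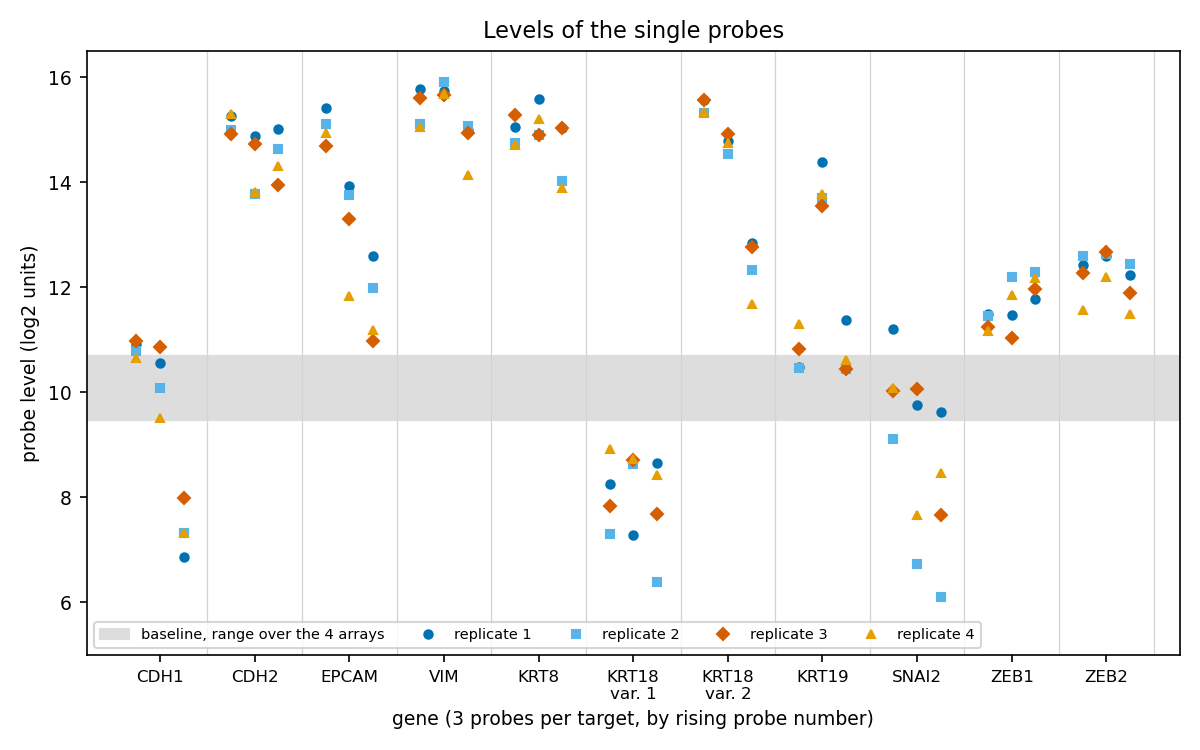
Level of every single probe of the 10 genes in log2 units, with 1 point per replicate array, 3 probes per target and a grey band from the lowest to the highest baseline of the 4 arrays (9.47 to 10.69). KRT18 has 2 targets, NM_000224 (var. 1), with all probes under the band, and NM_199187 (var. 2), with all probes above it, and the probes of CDH1 fall on both sides.

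The intermediate filament genes were detected throughout, with vimentin and keratins in the same cultures. VIM, the filament protein of mesenchymal and many cultured cells, had levels of 15.54, 15.41, 15.43 and 15.08 log2 units on replicates 1 to 4. Replicate 4 was the lowest and the range was 0.46 log2 units. The mean distance of VIM was 5.26 ± 0.64 log2 units (SD, n = 4), the largest of the 10 genes. Its highest probe value was 15.90, close to the 15.99 that was the highest value of any probe on any array, and saturation of spots was not examined.

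KRT8, the type II keratin of simple epithelia, had levels of 15.24, 14.60, 15.08 and 14.69 log2 units on replicates 1 to 4. Replicates 1 and 3 were above replicates 2 and 4. The mean distance was 4.80 ± 0.66 log2 units (SD, n = 4), and all 3 probes lay above the baseline on every array.

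KRT18, the type I keratin that pairs with KRT8, was measured by 2 targets, each named after its own RefSeq transcript, that gave opposite answers. The target NM_199187 had levels of 14.77, 14.50, 14.81 and 14.55 log2 units on replicates 1 to 4, which put it 4.55 ± 0.53 above the baseline (SD, n = 4). The target NM_000224 had levels of 8.16, 7.73, 8.15 and 8.71 log2 units, and its distance averaged -1.92 ± 0.56 (SD, n = 4). The first was above the baseline on each of the 4 arrays and the second below it on each, 6.47 log2 units apart in mean level. Only 3 of the 1464 genes with more than 1 target had targets further apart, and the median range over the targets of such a gene was 0.55 log2 units. The probes of NM_000224 are numbered 12, 15 and 21 and those of NM_199187 are numbered 607, 813 and 1317. If the number is the position in the transcript, which the sources used here do not state, the former lie near the 5′ end and overlap almost wholly. Over the whole array, 98 targets had all their probe numbers at 50 or lower, with a median level of 7.59 log2 units, against 9.94 for the other 23902 targets. In 8 of 11 genes that had such a target and another one, the other one was higher, by a median of 2.17 log2 units over the 11. KRT18 itself is among these 8, and none of the 11 had a larger difference. The cDNA was primed from the poly(A) tail, and whether distance from the tail lowered these probes was not tested. Whether the 2 KRT18 targets read different transcripts of the gene was not tested either. The average of both KRT18 targets stood 1.32 ± 0.50 log2 units above the baseline (SD, n = 4, limma adjusted p = 0.00022), and this average is the value used in the counts.

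KRT19, a small type I keratin of simple and ductal epithelia, had levels of 13.05, 12.38, 12.31 and 12.56 log2 units on replicates 1 to 4. Replicate 1 was the highest, and the mean distance was 2.47 ± 0.82 log2 units (SD, n = 4). The probe numbered 846 averaged 13.85 log2 units while the other probes averaged 10.76 and 10.71, and the probe numbered 1125 was below the baseline on replicate 3, at -0.25 log2 units. With the median of log2 probe values in place of the log2 of the mean, the distance of KRT19 was 1.02 (limma adjusted p = 0.0086). Genes for keratins have many processed copies in the genome. The RefSeq table lists 52 pseudogenes named after KRT8, 68 after KRT18 and 5 after KRT19, none with a target of its own here. Probe sequences were not used, so how far transcripts of these copies add to the keratin signals was not tested.

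The transcription factors split, with ZEB1 and ZEB2 detected and SNAI2 not. ZEB1, a zinc finger and homeodomain repressor of CDH1, had levels of 11.59, 12.02, 11.47 and 11.79 log2 units on replicates 1 to 4. Alone among the 10 genes it was lower on replicates 1 and 3 than on either of replicates 2 and 4. Its mean distance was 1.61 ± 0.63 log2 units (SD, n = 4, limma adjusted p = 6.2e-06), and its 3 probes averaged 11.34, 11.64 and 12.05, all above the baseline on every array.

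ZEB2, its close relative, had levels of 12.42, 12.56, 12.32 and 11.78 log2 units on replicates 1 to 4. Replicate 4 was the lowest. The mean distance was 2.16 ± 0.73 log2 units (SD, n = 4, limma adjusted p = 1.3e-09), or 2.78 on replicates 1 and 2 and 1.54 on replicates 3 and 4. The 3 probes of ZEB2 averaged between 12.01 and 12.52 log2 units, the smallest spread among probes of any target here, at 0.50.

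SNAI2, also called Slug, had levels of 10.38, 7.92, 9.59 and 9.09 log2 units on replicates 1 to 4. It was high on replicate 1 and low on replicate 2, a range of 2.47 log2 units, and all 3 of its probes were highest on replicate 1 or 3 and lowest on replicate 2. Its distances were 0.91, -2.02, -1.10 and -1.24 log2 units, with a mean of -0.86 ± 1.25 (SD, n = 4, limma adjusted p = 1). The SD of its level was 1.03, the largest of the 10 genes, against a median of 0.42 over all named genes, of which 3.81% had a larger SD. Among the 1504 genes with a mean level within 0.5 log2 units of that of SNAI2, the median SD was 0.54 and 11.2% had a larger SD. The mean distance of SNAI2 was 1.22 with olfactory receptor genes as controls (limma adjusted p = 0.00055).

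The other 9 genes varied less between arrays, with SDs of level from 0.20 for VIM to 0.39 for EPCAM. Averaged over each pair, the distance of all 10 genes was smaller on replicates 3 and 4 than on replicates 1 and 2, as it was for 87.1% of all named genes, and the baseline was higher on replicates 3 and 4. In level, 2 genes (EPCAM and ZEB2) were above on both of replicates 1 and 2, and 1 (KRT18) was below, where the share over all genes was 18.3% and 25%. Levels of 4 genes (CDH1, VIM, KRT8 and SNAI2) on replicates 1 and 3 all exceeded those on replicates 2 and 4, against 22.2% of all genes, and that of ZEB1 was lower, against 18.5%. Neither the labels nor the study's methods name a difference between these arrays, and its part in the results was not tested.

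Ordered by mean distance, the genes ran from VIM through KRT8, CDH2, EPCAM, KRT19, ZEB2, ZEB1, KRT18 and CDH1 to SNAI2. Each neighbouring pair in this order differed by less than the larger of its SDs except EPCAM with KRT19 and KRT18 with CDH1. The order is that of probe signals and not of message.

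Further genes of both states were then counted, in lists that were also chosen with earlier results of these data known. Of 42 matched epithelial genes outside the 10, 19 (45.2%) were detected. Of these, 17 had a positive distance on every array, and 19 others had a negative one on every array. Over all named genes 52.7% were detected and 45% had a positive distance on every array. The median distance of the list was -0.41 log2 units, against 0.26 for all named genes. The count was 34 with olfactory receptor genes as controls. The largest distances belonged to SPINT2, a protease inhibitor of epithelial membranes, at 4.71 ± 0.81 log2 units, and to 4 junction genes. These were DSG2 at 4.20 ± 0.51, JUP at 4.07 ± 0.43 and DSP at 3.90 ± 0.76, all of desmosomes, and the tight junction scaffold TJP1 at 3.53 ± 0.66 (SD, n = 4 for each). The lowest were the intestinal keratin KRT20 at -3.57 ± 0.53, and the epithelial transcription factors EHF at -3.38 ± 0.12 and GRHL2 at -3.36 ± 0.33 (SD, n = 4 for each), below the baseline on all 4 arrays.

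Of 33 mesenchymal genes, 14 (42.4%) were detected, against 52.7% of all named genes. On all 4 arrays 11 lay above the baseline and 15 below it, and the median distance of the list was -0.48 log2 units. With olfactory receptor genes as controls 23 were detected. The matrix proteins tenascin (TNC) and versican (VCAN) stood at 4.55 ± 0.68 and 4.50 ± 0.56, the actin-binding CALD1 at 4.24 ± 0.94 and the matrix protein SPARC at 3.26 ± 0.89 log2 units (SD, n = 4 for each). Fibronectin (FN1) stood at 2.30 ± 1.11 log2 units (SD, n = 4), with distances of 3.18 and 3.35 on replicates 1 and 3 and of 1.44 and 1.25 on replicates 2 and 4. The lowest genes of the list were the surface protease FAP at -3.56 ± 0.45, the proteoglycan DCN at -3.45 ± 0.41 and the collagen chain COL1A2 at -3.40 ± 0.19 log2 units (SD, n = 4 for each).

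**Figure D3:**
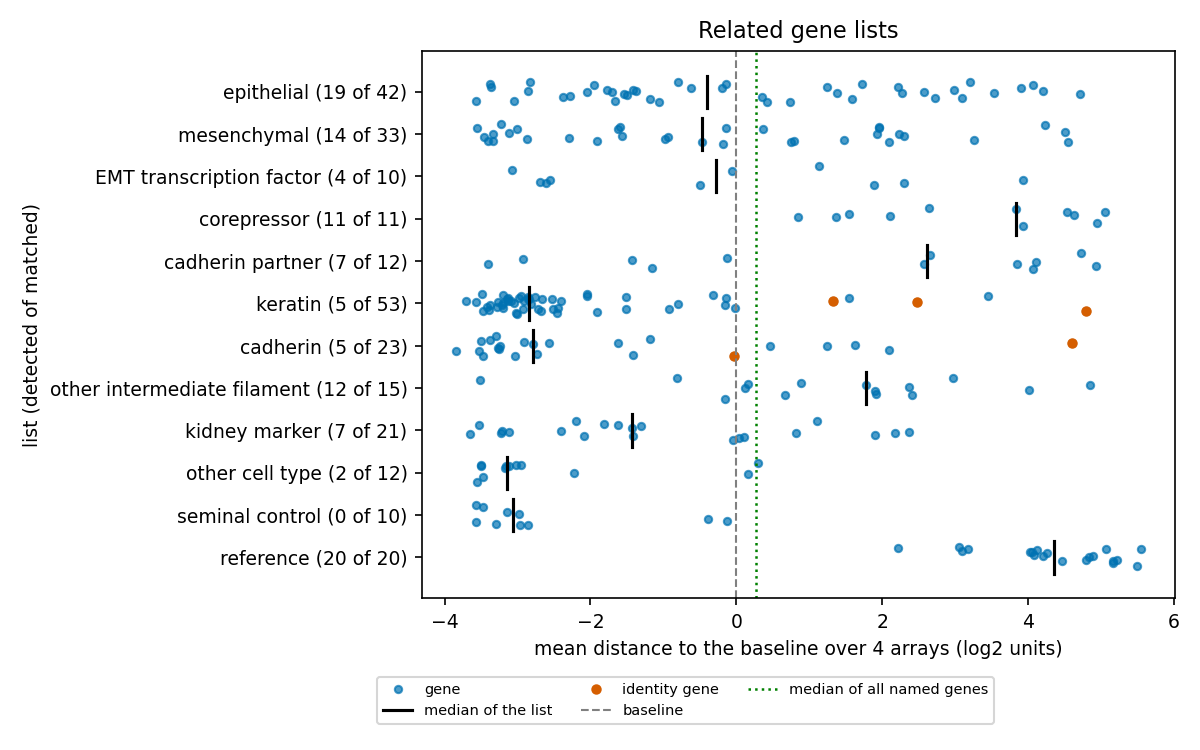
Mean distance to the baseline over 4 arrays, in log2 units, of each gene in 12 lists, with a bar for the median of the list, a dashed line for the baseline and a dotted line for the median of all named genes (0.26). Keratins and cadherins lie mostly below the baseline with KRT8 and CDH2 far above it, and all 11 corepressors lie above it.

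Of 10 further EMT transcription factors, 4 (40.0%) were detected, where the share of all named genes was 52.7%. Each of the 4 was above the baseline on all 4 arrays. FOXC1 stood at 3.93 ± 1.04, TCF3 at 2.30 ± 0.46, TCF4 at 1.89 ± 0.69 and SNAI1, the relative of SNAI2, at 1.14 ± 0.17 log2 units (SD, n = 4 for each). The E-box factor TWIST1 and the forkhead factor FOXC2 lay near the baseline at -0.50 ± 0.53 and -0.05 ± 0.53, and SNAI3, GSC, KLF8 and PRRX1 lay below it on all 4 arrays (SD, n = 4). The 11 corepressors and chromatin enzymes that such factors recruit were all detected on all 4 arrays, from AJUBA at 0.84 ± 0.46 to the histone demethylase KDM1A at 5.06 ± 0.63 log2 units (SD, n = 4). They included CTBP1 at 3.84 ± 0.73 and CTBP2 at 3.93 ± 0.81 log2 units (SD, n = 4), the partners of ZEB1 and ZEB2. These enzymes also work with many other factors, and 45% of all named genes lay above the baseline on every array.

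Cadherins are tied to actin through catenins, and nectins share the junctions that cadherins build. Of 12 genes for catenins, nectins, vinculin (VCL) and afadin (AFDN), 7 (58.3%) were detected, all on 4 of 4 arrays. The share of all named genes detected was 52.7%. CTNNB1 stood at 4.93 ± 0.52, CTNNA1 at 4.72 ± 0.59, the plakoglobin JUP, also counted above, at 4.07 ± 0.43 and CTNND1 at 2.57 ± 0.62 log2 units (SD, n = 4 for each). Vinculin stood at 3.85 ± 0.53, NECTIN2 at 4.11 ± 0.61 and NECTIN3 at 2.65 ± 0.54 log2 units (SD, n = 4 for each). The neural and heart catenins CTNNA2 and CTNNA3 lay below the baseline on all 4 arrays, at -3.40 ± 0.47 and -2.92 ± 0.86 (SD, n = 4). CTNND2, a neural catenin, was above the baseline on replicate 1 at 1.23 and below it on replicates 2, 3 and 4 at -2.56, -0.81 and -3.57 log2 units. AFDN lay below the baseline on all 4 arrays at -1.16 ± 0.49, and NECTIN1 lay near it at -0.13 ± 0.32 log2 units (SD, n = 4).

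The keratins and cadherins of the 10 genes were then set among their families. Of 53 keratin genes 5 (9.43%) were detected, against 52.7% of all named genes, and 43 lay below the baseline on all 4 arrays. The median distance of the keratins was -2.84 log2 units. The count was 8 without replicate 4 and 16 with olfactory receptor genes as controls. Besides KRT8, KRT18 and KRT19 these were KRT17, a keratin of basal cells and skin appendages, and KRT10, a keratin of upper epidermis, at 1.54 ± 0.88 log2 units (SD, n = 4). KRT17 stood at 3.46 ± 1.71 log2 units (SD, n = 4), with distances of 5.51 and 4.16 on replicates 1 and 3 and of 2.41 and 1.74 on replicates 2 and 4. Of 23 cadherin genes 5 (21.7%) were detected, and 17 lay below the baseline on all 4 arrays, while with olfactory receptor genes as controls 9 were detected. The 5 were CDH2, CDH11 at 2.10 ± 0.65, CDH7 at 1.62 ± 0.62 and CDH3, the P-cadherin, at 1.24 ± 0.46 log2 units (SD, n = 4 for each), and CDH24, named after its value was seen, at 0.46, above the baseline on 3 of 4 arrays.

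Detection held for 12 of 15 other intermediate filament genes (80.0%), against 52.7% of all named genes. On every array 9 had a positive distance, against 45% of all named genes, and the limma test called 9, against 45.9%. NEFM and BFSP1, named after their values were seen, and GFAP had positive means but lay above the baseline on only 2 of 4 arrays each. The distance of NEFM was 0.66 ± 3.08 log2 units (SD, n = 4). The median distance over the 15 genes was 1.77 log2 units. The lamins LMNB2, LMNA and LMNB1, which line the nucleus, stood at 4.85 ± 0.59, 2.98 ± 0.60 and 2.36 ± 0.81, and the neuronal NEFL and INA at 4.01 ± 0.56 and 2.41 ± 1.04 log2 units (SD, n = 4 for each). The muscle desmin DES and the lens BFSP2 lay below the baseline on all 4 arrays, at -0.82 ± 0.46 and -3.52 ± 0.49 log2 units (SD, n = 4). The 20 widely used reference genes were all detected, and 1 of 364 olfactory receptor genes was.

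The 8 detected genes kept a positive distance under all 19 alternatives run for each of them. The distance of VIM ranged from 3.94 to 7.59 log2 units, that of CDH2 from 3.28 to 6.92 and that of EPCAM from 2.52 to 6.17. With a baseline of 3 SD, KRT18 fell to 0.00 and ZEB1 to 0.30 log2 units, and neither passed the limma test there (adjusted p = 1 and 0.618). The value of KRT18 averages targets on opposite sides of the baseline, and with the highest target of each gene in place of the average it was 4.52 log2 units. The positions of CDH1 and SNAI2 can be read in the plot of distances under other processing choices.

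**Figure D4:**
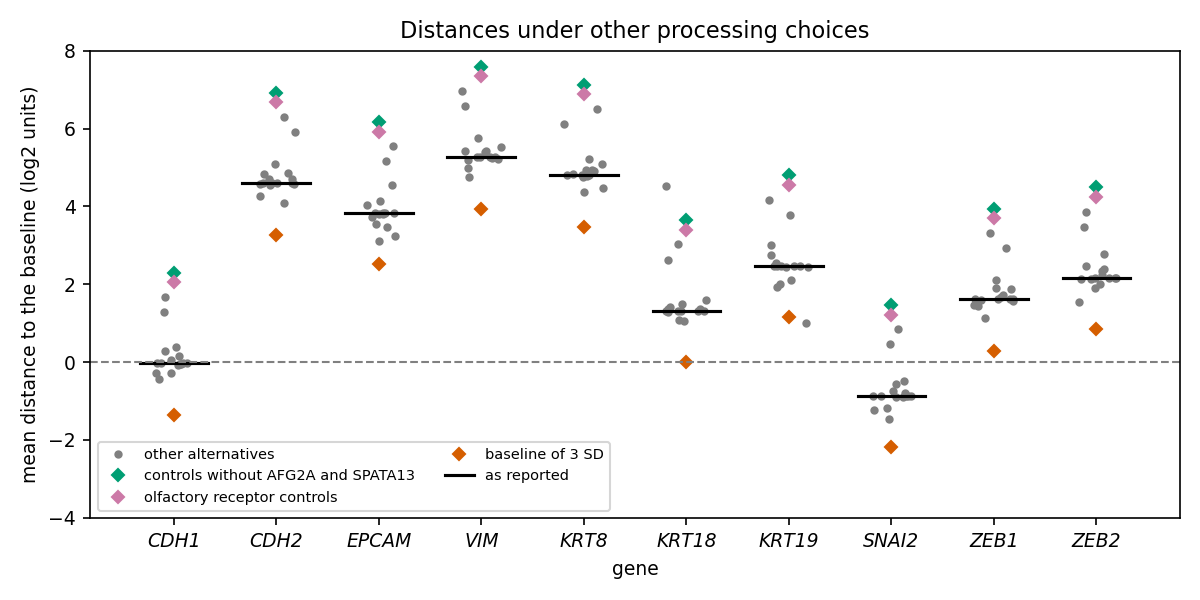
Mean distance of each gene to the baseline, in log2 units, as reported (bar) and under 19 alternatives (points), with the choices of control genes and a baseline of 3 SD drawn as colored diamonds. CDH1 and SNAI2 move from below the baseline to above it with other controls, to 2.30 and 1.47 without AFG2A and SPATA13, and the other 8 genes stay at or above it.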

How the data were processed

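RNA of 4 HEK293 replicates was measured on 1-color NimbleGen arrays designed on HG18. For each probe on each array the authors deposited a log2 value. Images were read with NimbleScan and log2 transformed per the study's methods, and the submitters' processing notes name RMA with no role. The form of the table fits quantile normalization in 2 pairs of arrays. Raw intensities were not used here, so background and saturation were not examined, and the number of arrays limits the precision.

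Probe names gave 24000 targets, of which 19122 matched a RefSeq gene of GRCh38.p14, used for names only, and stood for 17214 genes. A target is log2 of the mean linear probe value and a gene is the mean of its targets. Of 11 seminal controls, 10 matched (not PYY2). Distances were tested one-sided with limma 3.58.1 in R 4.3.3, Benjamini-Hochberg threshold 0.05. The prior had infinite degrees of freedom, which gave every gene the standard error 0.351, and small p-values should be read with that in mind. The baseline is shared within an array, so genes were not independent. With 4 arrays, the smallest p of an exact one-sided sign-flip test is 0.0625. On simulated data of 17214 genes, 100% of 200 genes set 2 log2 units above 0 were recovered. The other genes were set below 0, so none lay at 0, and noise was independent with a common SD of 0.63. A baseline shared within an array and SDs that differ by gene were not simulated, so this recovery does not extend to them. Recovery at smaller distances, such as those of CDH1 and KRT18, was not tested. E-boxes and GC boxes were counted on both strands. TWIST2, TJP3 and GRHL1 were not matched.

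Members and lists were chosen with earlier results of these data known. Named genes were the 10 members, the controls, any gene of lists of 12 or fewer, and of longer lists up to 5 with the largest distance above the baseline on all 4 arrays and up to 3 with the lowest. A kidney marker that this rule names is not reported here.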

Additional observations from a re-analysis of the deposited data

Results flagged for a closer look

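In 8 of 106 values tested, an array stood apart: its gap to the nearest of the others, divided by the whole range, was above Dixon's critical value for 4 samples. Chance alone marks about 1 in 20. The level of CDH2 was 15.06 log2 units on replicate 1 against 14.55 to 14.61 elsewhere (ratio 0.89). In distance to the baseline, replicate 1 stood above the others for TNC (5.56 against 4.12 to 4.34, ratio 0.845), AFDN (-0.44 against -1.46 to -1.29, ratio 0.839), LMNA (3.87 against 2.59 to 2.79, ratio 0.839), BFSP2 (-2.79 against -3.83 to -3.70, ratio 0.879) and GATA3 (2.42 against 0.57 to 0.78, ratio 0.884). Replicate 1 also had the lowest baseline, and the part of the baseline in these gaps was not tested. KRT27 was lowest on replicate 2 (-4.12 against -3.61 to -3.54, ratio 0.889), and VWF was highest on replicate 4 (-2.63 against -3.37 to -3.34, ratio 0.948).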

How the results depend on the processing

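The height of the baseline moved the calls most. The distance of CDH1, -0.03 log2 units as reported, turned positive at 1.29 with a baseline of 1 SD, 1.68 with the median plus 2 scaled MAD, 2.30 without AFG2A and SPATA13 as controls, 2.05 with olfactory receptor genes, 0.28 with the median of log2 probe values and 0.38 on replicates 1 and 2 alone. When each replicate was left out in turn it ran from -0.29 to 0.17, positive without replicate 3 (0.05) and without replicate 4 (0.17). SNAI2 turned positive at 0.46 with 1 SD, 0.84 with the scaled MAD, 1.47 without AFG2A and SPATA13 and 1.22 with olfactory receptor genes. With 3 SD, KRT18 at 0.00 and ZEB1 at 0.30 no longer passed. The other 176 alternative distances neither changed sign nor crossed the test's threshold. Epithelial genes detected numbered 30 with the scaled MAD, 35 without AFG2A and SPATA13 and 34 with olfactory receptor genes, and mesenchymal genes 22, 24 and 23. Keratin genes numbered 11 with 1 SD, 13 with the scaled MAD, 16 without AFG2A and SPATA13, 16 with olfactory receptor genes, 9 on replicates 1 and 2 alone, and 5 to 8 when each replicate was left out. Cadherin genes numbered 3 with 3 SD and 9 with the scaled MAD, without AFG2A and SPATA13 and with olfactory receptor genes. The other 202 counts stayed within 1.5 times the reported count. These shifts follow from the height of the baseline where that was changed, and the cause was not tested elsewhere. No paired analysis was possible because the series holds 1 group. Signal over background of single spots was not known.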
